A study of Mus musculus with 5 samples.

Results

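The insulin-like growth factor (IGF) system was followed here through 9 genes: the ligands Igf1 and Igf2, the receptor Igf1r, and the binding proteins Igfbp2 to Igfbp7. They were picked by symbol after the Ensembl identifiers of the count table had been matched to gene names, so the 9 genes stand among 56941 identifiers, and all 9 passed the minimum of 10 counts in at least 1 pool that left 19713 genes for testing. The tissue was the iridocorneal angle, the ring between iris and cornea that holds the trabecular meshwork and Schlemm's canal, through which aqueous humor leaves the eye. Its bulk mRNA was sequenced from 3 pools of DBA/2J mice and 2 pools of DBA/2J-Gpnmb+ mice (Gpnmb+ below). DBA/2J mice carry a mutant allele of Gpnmb together with the b allele of Tyrp1 and develop pigment dispersion, raised pressure and glaucoma. Gpnmb+ mice have a functional Gpnmb allele on the same background and, in the strain's description, keep the Tyrp1 b allele. Mice of both groups were 12 months old and untreated, and are described as of both sexes, which the RNA of the Gpnmb+ pools given below goes against. Every pool is described as 3 mice, while the library names carry 3 animal numbers in the DBA/2J pools and 2 in the Gpnmb+ pools.

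IGF1 and IGF2 are secreted peptides that act through the receptor tyrosine kinase IGF1R, which signals to growth and survival through insulin receptor substrates, PI3K and Akt. The binding proteins hold the ligands in the extracellular space, prolong their life and limit or deliver their access to the receptor, and proteases that cleave the binding proteins set the ligands free. IGFBP2 and IGFBP5 attach to matrix and cell surfaces, IGFBP4 mainly inhibits the ligands, IGFBP6 prefers IGF2, and IGFBP7 binds IGFs only weakly and is also known as an insulin-binding and vascular matrix protein. In the eye, IGF binding proteins are made by ciliary body, trabecular meshwork, cornea and vessels and are found in aqueous humor.

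The labels and the depth bear on all values below. Totals ran from 43900661 to 49837758 counts per pool, and the common biological coefficient of variation in edgeR was 20.7%. Gpnmb counts were 2042, 2234 and 1946 with the mutant allele and 129659 and 110568 with the functional one, in the direction of the labels. The 6 markers listed for trabecular meshwork and limbal stroma were detected and none was called. Their sum was 6540 to 7100 CPM (counts scaled to a common library size by the trimmed mean of M values, TMM) in DBA/2J and 5560 to 6340 in Gpnmb+. That sum was carried by Chil1, at 3450 ± 568 against 1530 ± 492 CPM (SD), while 4 of the 6 were negative, 3 of them lower in DBA/2J without overlap between the genotypes. Markers listed for corneal epithelium summed to 6710 to 10900 CPM in DBA/2J and 10600 to 12100 CPM in Gpnmb+. In DBA/2J pool 3, which had the lowest sum, Krt5 was at 2100 and Krt15 at 2850 CPM. How much of the sum came from cornea was not tested. Of the 6 markers, 4 were negative and 0 called. The corneal keratin Krt12, chosen after its values were seen, was at 254, 116 and 9.44 CPM in DBA/2J and 1700 and 554 CPM in Gpnmb+, a log2 difference of -3.16 (standard error 1.16, adjusted p = 0.27) without overlap. RNA of 4 Y-linked genes summed to 66.2 to 199 CPM in the DBA/2J pools and 0.0394 to 0.102 CPM in the Gpnmb+ pools, and Xist was at 13.4, 0 and 54.2 CPM against 155 and 187 CPM. The counts of each Y-linked gene were 0 to 4 in the Gpnmb+ pools, so both pools held almost no male RNA, against their description, while DBA/2J pool 2 had Y-linked RNA and no Xist count. Genotype and sex makeup of the pools therefore cannot be told apart in any comparison here.

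Igf2 and its neighbour H19 are imprinted in opposite ways: Igf2 is read from the paternal copy and H19 from the maternal copy, and the insulator protein CTCF, bound upstream of maternal H19, is known to keep their shared enhancers from Igf2. Both genes lay lower in DBA/2J in the values below, and neither was called in edgeR. Part of the sequence between them is shown as description only. Its part in those values was not tested. The GRCm39 reference, which is not from DBA/2J, was searched over 5 kb before the median start of 21 annotated H19 transcripts (chr7:142131879, minus strand). Those 5 kb held 4 matches to the CTCF-type letters CCGCNNGGNGGCAG (N for any base), searched on both strands. They lay 2.2, 2.6, 3.6 and 3.9 kb upstream of that start, at chr7:142134031-142134074, chr7:142134486-142134529, chr7:142135512-142135555 and chr7:142135756-142135799 with 15 bases on either side. All 4 were on the minus strand, and the capitals mark the match.
H19 upstream match 1: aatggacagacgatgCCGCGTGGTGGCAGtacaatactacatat
H19 upstream match 2: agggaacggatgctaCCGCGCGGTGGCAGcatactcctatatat
H19 upstream match 3: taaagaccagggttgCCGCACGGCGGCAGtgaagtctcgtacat
H19 upstream match 4: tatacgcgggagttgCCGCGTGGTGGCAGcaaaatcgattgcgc

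Of 316796 windows of 5 kb before annotated transcript starts, 0.313% held at least 1 such match and 0.00505%, or 16 windows, at least 4. Windows before H19's own starts are among them, and windows of nearby starts overlap. How many of the 16 lie at H19 was not counted, so these shares are no independent comparison. CTCF binding and DNA methylation at these letters were not measured here. The promoters shown next are those of Igf2 and Igfbp6, the IGF genes with the lowest unadjusted p-values, and of Htra1, the pathway gene that passed the test, each as the 250 bases before the start of its canonical GENCODE transcript in GRCm39, written along the gene's strand. They were searched on both strands for 3 short promoter elements, and capitals mark matches. One was the GC box, spelled GGGCGG, which binds Sp1 and its relatives. Another was the CCAAT box, spelled as named. The last was the TATA box that positions the start of transcription, spelled TATAAA. Igf2 is chr7:142211234-142211483 (minus strand), Igfbp6 is chr15:102052447-102052696 (plus strand) and Htra1 is chr7:130537268-130537517 (plus strand).
Igf2 promoter: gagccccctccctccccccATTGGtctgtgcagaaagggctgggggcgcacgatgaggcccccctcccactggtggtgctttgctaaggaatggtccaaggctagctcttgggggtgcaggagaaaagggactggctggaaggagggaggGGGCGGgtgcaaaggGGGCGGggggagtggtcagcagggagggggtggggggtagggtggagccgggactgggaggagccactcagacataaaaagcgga
Igfbp6 promoter: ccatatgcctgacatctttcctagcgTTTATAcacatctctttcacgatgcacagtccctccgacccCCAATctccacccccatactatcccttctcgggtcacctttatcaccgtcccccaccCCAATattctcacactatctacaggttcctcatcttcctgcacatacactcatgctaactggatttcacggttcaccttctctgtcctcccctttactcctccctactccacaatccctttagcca
Htra1 promoter: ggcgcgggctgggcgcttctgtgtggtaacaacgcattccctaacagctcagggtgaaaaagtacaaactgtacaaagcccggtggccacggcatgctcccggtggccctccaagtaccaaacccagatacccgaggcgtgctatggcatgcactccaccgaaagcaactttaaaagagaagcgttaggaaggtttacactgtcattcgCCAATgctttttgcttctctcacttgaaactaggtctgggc

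The Igf2 window was 66.0% G and C and held 2 GC boxes and 1 CCAAT box. The Igfbp6 window was 50.0% G and C with 2 CCAAT boxes and 1 match to the TATA box letters. That match was on the opposite strand, near the end of the window farther from the transcript start. The Htra1 window was 53.2% G and C with 1 CCAAT box. Among 21757 such windows of protein-coding genes, 36.3% held a GC box, 36.5% a CCAAT box and 11.9% a TATA box, so the matches are common and describe only the letters.

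The question put to the 9 genes was whether their RNA differed between mice with the mutant and the functional Gpnmb allele. None passed the threshold, a Benjamini-Hochberg adjusted p of at most 0.05 with a fold change of at least 1.5 in edgeR's quasi-likelihood test, which 0.796% of all tested genes passed. At an unadjusted p of at most 0.05 there were 3 of the 9 (Igf2, Igfbp6 and Igfbp7), beside 15.9% of all tested genes. DESeq2 with the same threshold called 2 of the 9 (Igf2 and Igfbp6) beside 4.7% of all tested genes. With limma-voom, 0 of the 9 were called, beside 190 of all 19713 tested genes. The log2 fold changes, positive when higher in DBA/2J, were positive for 5 and negative for 4 genes with a median of 0.14, against a median of -0.02 over all tested genes. In 6 of the 9 the pools of the genotypes did not overlap, 3 with DBA/2J above and 3 with DBA/2J below, where 34.5% of all tested genes did not overlap. An exact two-sided permutation test of 1 gene has 10 arrangements of these pools and cannot go below p = 0.1 on the absolute difference, or 0.2 with the smaller tail doubled, so p-values come from the model over all genes. In bulk tissue, fewer cells of a type and less RNA per cell cannot be told apart.

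**Figure D1:**
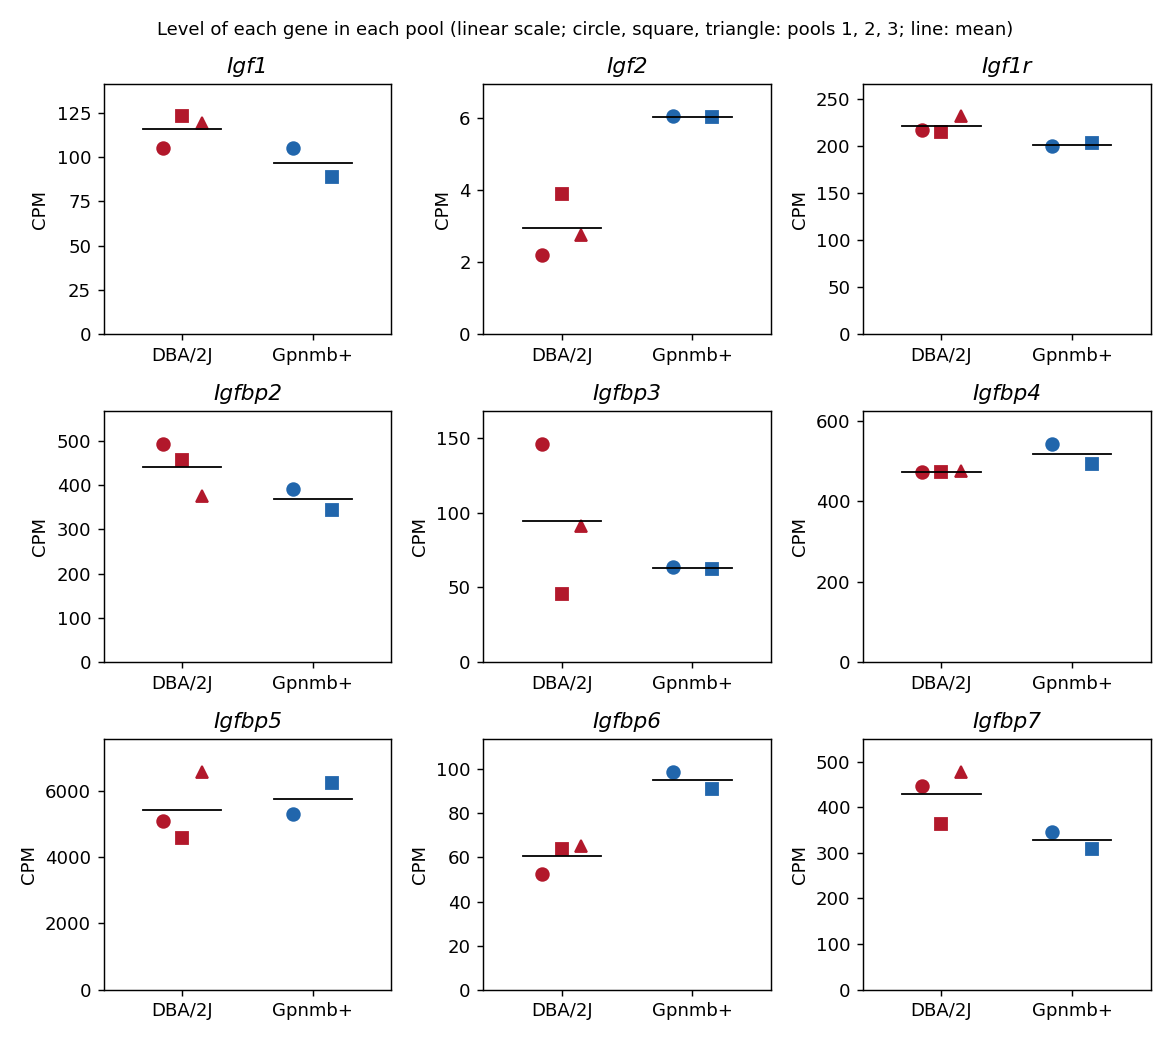
CPM of each gene on a linear axis from 0, with 1 point per pool (DBA/2J red, Gpnmb+ blue) and a line at the group mean. Igf2 and Igfbp6 had both Gpnmb+ pools well above the 3 DBA/2J pools, and Igfbp3 spread from 45.4 to 146 CPM within DBA/2J alone.

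Igf2, the fetal growth ligand that declines in most tissues after birth, was the lowest of the 9 in level and had the largest fold change among them. The gene (chr7:142204503-142220694, minus strand) was counted 98, 168 and 123 times in DBA/2J against 307 and 295 times in Gpnmb+. These counts are 2.2, 3.91 and 2.76 CPM against 6.05 and 6.03 CPM. Both Gpnmb+ pools stood above every DBA/2J pool and almost at the same level as each other, while the DBA/2J pools spread over 1.78-fold. The log2 fold change was -1.03 (standard error 0.26, 95% interval -1.67 to -0.39), and the Benjamini-Hochberg adjusted p of the quasi-likelihood test in edgeR was 0.147. The level itself is uncertain, since 58.4% of the exon bases of Igf2 are also exon of Gm49394 on the same strand, and reads that fit both genes may not have been counted. Gm49394 had 0 counts in 4 pools and 2 in Gpnmb+ pool 2. Whether counting used the strand is not given in the sources used here, and 9.75% of the exon bases lie opposite Igf2os or Gm33148.

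Igf1, the ligand that growth hormone induces and that many adult tissues make locally, was much more abundant than Igf2. Its gene (chr10:87693642-87772904, plus strand) was at 105, 123 and 119 CPM in DBA/2J and 105 and 88.8 CPM in Gpnmb+. The groups met at DBA/2J pool 1 and Gpnmb+ pool 1, and scaling by total counts made them overlap. The log2 fold change was 0.26 (standard error 0.11, interval -0.02 to 0.54, adjusted p = 0.346). Levels per exon length were taken as TPM (a level scaled by length to the same total in every pool). In TPM the Igf1 to Igf2 ratio was 28.7, 19 and 25.9 in DBA/2J and 10.4 and 8.87 in Gpnmb+. The ratio did not overlap between genotypes, but neither did Igf2 alone, so it restates that separation. With the Igf2 length limited to bases that no other gene covers on its strand, the ratios were 11.9, 7.89 and 10.8 against 4.33 and 3.69, with the same order.

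Igf1r (chr7:67601518-67883416, plus strand), the receptor for both ligands, varied little between pools. It was at 218, 215 and 232 CPM in DBA/2J and 200 and 204 CPM in Gpnmb+. All DBA/2J pools were above both Gpnmb+ pools, by little: the log2 fold change was 0.14 (standard error 0.08, interval -0.06 to 0.34, adjusted p = 0.474). The interval did not reach a 1.5-fold difference in either direction. An antisense gene, Pgpep1l, lies opposite 6.31% of its exon bases.

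Igfbp6 (chr15:102052697-102057953, plus strand), the binding protein with a preference for IGF2, had the smallest adjusted p of the 9. It was at 52.4, 63.7 and 65.4 CPM in DBA/2J and 99 and 91.1 CPM in Gpnmb+, or 60.5 ± 7.06 (SD, n = 3) against 95 ± 5.6 (SD, n = 2). The distance between the groups exceeded the spread inside either group. The log2 fold change was -0.65 (standard error 0.12, interval -0.94 to -0.36), a fold of 0.64, with an adjusted p of 0.0784 in edgeR. In the alternatives it was 0.000384 with DESeq2 and 0.056 to 0.219 with the others. Igfbp6 and Igf2 thus lay in the same direction, and the ranges of both were separated under TMM, total counts and DESeq2 size factors.

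Igfbp7 (chr5:77493130-77555931, minus strand), which is rich in vessel walls and basement membranes, lay the other way. It was at 446, 363 and 478 CPM in DBA/2J and 346 and 308 CPM in Gpnmb+. DBA/2J pool 2 came close to Gpnmb+ pool 1, without overlap. The log2 fold change was 0.39 (standard error 0.14, interval 0.05 to 0.74, adjusted p = 0.268). Polr2b lies opposite 13.7% of its exon bases. The 8 endothelial markers summed to 406 to 542 CPM in DBA/2J and 459 to 498 CPM in Gpnmb+, and none was called. Of these, 3 were positive and 5 negative. Without overlap there were 3, all lower in DBA/2J, where 34.5% of all tested genes did not overlap in either direction.

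Igfbp3 (chr11:7156086-7164179, minus strand), the main carrier of IGF1 in serum, varied most between pools of 1 genotype. It was at 146, 45.4 and 91.4 CPM in DBA/2J, a 3.23-fold range, and at 63.7 and 62.1 CPM in Gpnmb+. The Gpnmb+ pools lay inside the DBA/2J range. The log2 fold change was 0.58 (standard error 0.44, interval -0.5 to 1.67, adjusted p = 0.576), so the data allow differences of either sign at this number of pools. It rested on DBA/2J pool 1, the highest: leaving out 1 pool at a time gave 0.12 to 0.92.

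Igfbp2 and Igfbp5 are neighbours, 5.5 kb apart on chromosome 1 and read toward each other. Igfbp2 (chr1:72863606-72891634, plus strand) was at 493, 456 and 376 CPM in DBA/2J and 392 and 343 CPM in Gpnmb+. Its groups overlapped at DBA/2J pool 3, and the log2 fold change was 0.27 (standard error 0.14, interval -0.08 to 0.61, adjusted p = 0.426). Igfbp5 (chr1:72897091-72914043, minus strand) was at 5100, 4570 and 6590 CPM in DBA/2J and 5310 and 6240 CPM in Gpnmb+. The highest and the lowest pool were both DBA/2J, and the log2 fold change was -0.09 (standard error 0.2, interval -0.57 to 0.39, adjusted p = 0.859). DBA/2J pool 3 had the highest Igfbp5 and the lowest Igfbp2 of the 3 DBA/2J pools.

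Igfbp4 (chr11:98932064-98945218, plus strand), an inhibitor of IGF action that the protease PAPP-A cleaves, was nearly constant in DBA/2J. It was at 473, 473 and 476 CPM there and at 543 and 492 CPM in Gpnmb+. The groups did not overlap, yet the Gpnmb+ pools differed more from each other than the lower one did from DBA/2J. The log2 fold change was -0.13 (standard error 0.09, interval -0.35 to 0.1, adjusted p = 0.555).

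**Figure D2:**
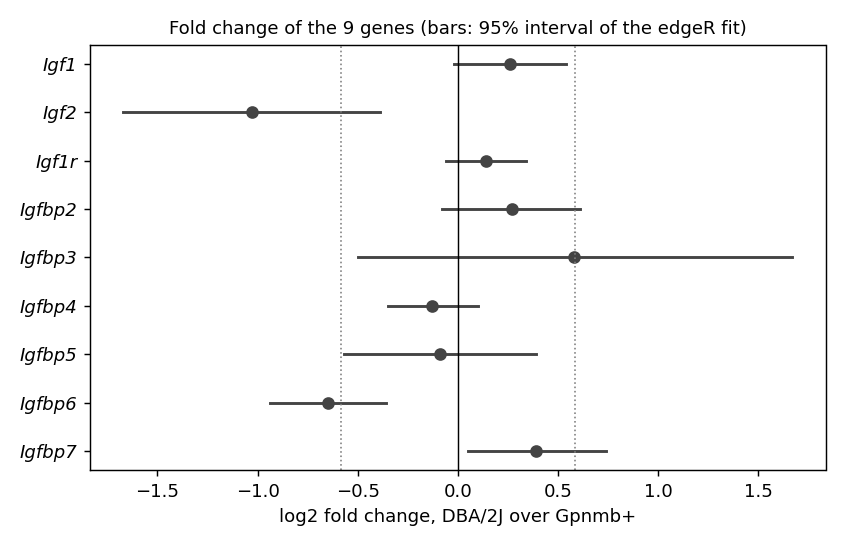
Log2 fold change of DBA/2J over Gpnmb+ for each gene (point) with the 95% interval of the edgeR fit (bar), and dotted lines at a 1.5-fold difference. The intervals of Igf2 (-1.67 to -0.39), Igfbp6 (-0.94 to -0.36) and Igfbp7 (0.05 to 0.74) did not include 0, and that of Igfbp3 was the widest (-0.5 to 1.67).

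Compared per exon length, Igfbp5 was by far the most abundant member and ranked 16 among all genes of the table. Its level was 3870 TPM on average over the 5 pools (3050 to 4760), followed by Igfbp2 at 823 TPM (690 in its lowest pool) and Igfbp4 at 463 TPM (428 to 520). These 3 did not overlap with each other. Igfbp7 came next at 297 TPM (236 to 380) and overlapped with Igfbp6 at 225 TPM (154 to 304), which in turn overlapped with Igfbp3 at 95.4 TPM (51.0 to 166). Igf1r at 45.0 TPM (42.8 to 51.0) and Igf1 at 44.0 TPM (36.3 to 50.4) were indistinguishable, and Igf2 was last at 2.84 TPM (1.45 to 4.16). With unshared exon bases Igf2 averaged 6.82 TPM, still the lowest.

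**Figure D3:**
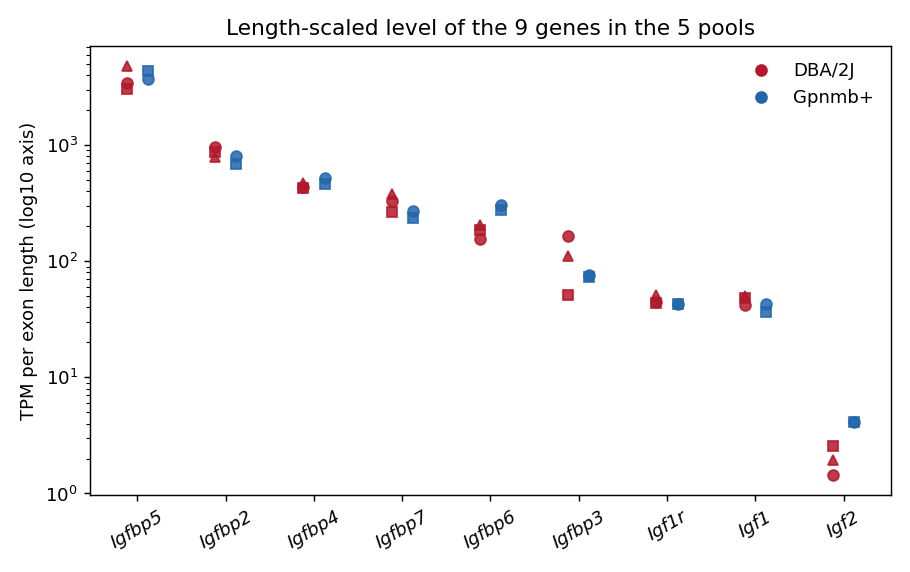
TPM of the 9 genes in each pool on a log10 axis, ordered by the mean over all pools (DBA/2J red, Gpnmb+ blue, pool numbers by symbol). Levels ran from 3050 to 4760 TPM for Igfbp5 down to 1.45 to 4.16 TPM for Igf2.

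The 6 binding proteins together summed to 5490, 4860 and 6710 TPM in DBA/2J and 5710 and 6080 TPM in Gpnmb+, which overlapped. Igfbp5 made up 62.7%, 62.7% and 71.0% of that sum in DBA/2J and 65.6% and 71.4% in Gpnmb+, or 66.7% ± 4.28 (SD) over the 5 pools. Igfbp6 made up 2.8%, 3.81% and 3.07% against 5.32% and 4.53%, without overlap. Igfbp7 made up 6.04%, 5.5% and 5.67% against 4.71% and 3.88%, also without overlap and in the other direction. Both genes were already separated in CPM, so these shares restate that. The summed binding protein RNA was 127, 95.5 and 128 times the summed ligand RNA in DBA/2J and 120 and 151 times in Gpnmb+, so the excess of binding protein over ligand RNA was seen in every pool.

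The rest of the IGF pathway was read from 6 lists with 69 genes, of which 63 were tested. A single gene was called, Htra1, and it was higher in DBA/2J, a direction in which 0.502% of all tested genes were called. Htra1 encodes a secreted serine protease that cleaves matrix proteins and IGF binding proteins, Igfbp5 among them. It was at 417, 410 and 375 CPM in DBA/2J and 221 and 199 CPM in Gpnmb+, or 401 ± 23 (SD, n = 3) against 210 ± 15.5 (SD, n = 2). Every DBA/2J pool was far above both Gpnmb+ pools. Htra1 rose by 0.93 on the log2 scale (standard error 0.10, interval 0.68 to 1.18, adjusted p = 0.03 in edgeR's quasi-likelihood test), a fold of 1.91. The call was lost when DBA/2J pool 1, 2 or 3 or Gpnmb+ pool 2 was left out, with adjusted p of 0.117, 0.114, 0.0778 and 0.14 and log2 fold changes of 0.90, 0.91, 0.98 and 0.86. The Igfbp5 to Htra1 ratio of TPM was 7.43, 6.76 and 10.7 in DBA/2J and 14.6 and 19 in Gpnmb+. It did not overlap, but neither did Htra1 alone, so it restates that separation.

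Among the other 6 proteases and inhibitors, none was called. Adam12, a metalloprotease of IGFBP3 and IGFBP5, was at 6.41, 2.14 and 4.06 CPM in DBA/2J and 3.31 and 1.51 CPM in Gpnmb+, which overlapped. Its log2 difference was 0.80 (standard error 0.54). Leaving out 1 pool at a time gave 0.35 (without Gpnmb+ pool 2) to 1.48 (without Gpnmb+ pool 1). The stanniocalcins, secreted inhibitors of PAPP-A, lay in opposite directions, Stc1 at -0.50 (standard error 0.22) and Stc2 at 0.45 (standard error 0.21). Pappa, the IGFBP4 protease, was at 17.2, 7.27 and 8.77 CPM against 11.4 and 5.6 CPM, at 0.39 (standard error 0.46), and turned sign without DBA/2J pool 1 (-0.08) or Gpnmb+ pool 2 (-0.03). DBA/2J pool 1 thus held the highest level of Pappa and Adam12 as well as of Igfbp3.

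**Figure D4:**
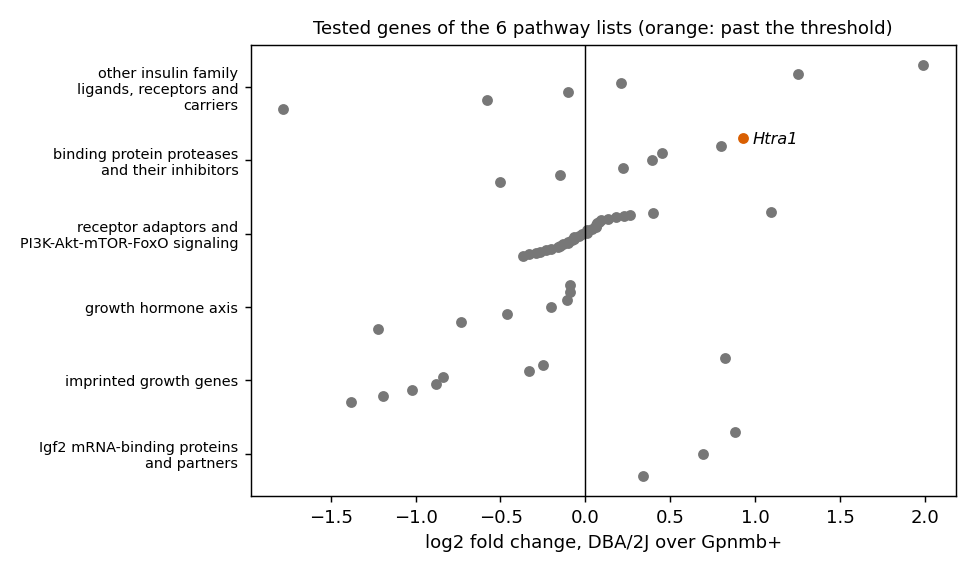
Log2 fold change of each of the 63 tested genes of the 6 pathway lists, 1 row per list and 1 point per gene, with a called gene in orange. Htra1, at 0.93, was the only one called, and the signaling genes lay around 0 apart from Irs4 at 1.09.

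The imprinted growth genes, a list of genes expressed from 1 parental copy that share a fetal expression program with Igf2, lay mostly below 0. Of 8 tested, 7 were negative with a median of -0.86, and 0 were called. At an unadjusted p of at most 0.05, 5 of the 8 were lower in DBA/2J, where 7.6% of all tested genes were, and Mest was higher. Without overlap between the genotypes there were 7, 6 lower and Mest higher in DBA/2J, where 34.5% of all tested genes did not overlap in either direction. The DESeq2 fit called 4 of the 8 (H19, Dlk1, Peg3 and Mest) beside 4.7% of all tested genes. By limma-voom none was called, beside 190 of all 19713 tested genes. The list was chosen with the Igf2 values known. It holds H19 and Igf2os of the Igf2 region, which are not separate from Igf2. Grb10, an imprinted gene at -0.33, was kept in the signaling list instead.

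H19, the noncoding RNA 71 kb from Igf2, was counted 672, 643 and 1301 times in DBA/2J against 2058 and 1934 times in Gpnmb+. DBA/2J pool 3 lay between the others, and the log2 fold change was -1.02 (standard error 0.3, interval -1.76 to -0.28, adjusted p = 0.193), close to the -1.03 of Igf2. Igf2 and H19 are read from opposite parental copies, and both lay lower in DBA/2J. Without DBA/2J pool 3, H19 was called at -1.41 (adjusted p = 0.0446), and over all alternatives its adjusted p ran from 0.0219 to 0.425. Igf2os, the antisense transcript of Igf2, had 5, 15 and 11 counts against 40 and 22, a log2 difference of -1.38 (standard error 0.53, adjusted p = 0.287).

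Dlk1, a Notch-family regulator of fat and muscle differentiation, was at 2.14, 2.91 and 2.53 CPM in DBA/2J and 5.16 and 6.34 CPM in Gpnmb+. It lay at -1.19 on the log2 scale (standard error 0.21, adjusted p = 0.0723), with every DBA/2J pool below both Gpnmb+ pools. Peg3, a zinc finger gene of the paternal copy, was at 21.4, 25.3 and 35.2 CPM against 53.4 and 46.9 CPM, at -0.88 on the log2 scale (standard error 0.21, adjusted p = 0.132). Mest, also expressed from the paternal copy, was at 149, 120 and 171 CPM against 107 and 59.3 CPM, at 0.82 (standard error 0.27, adjusted p = 0.239).

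**Figure D5:**
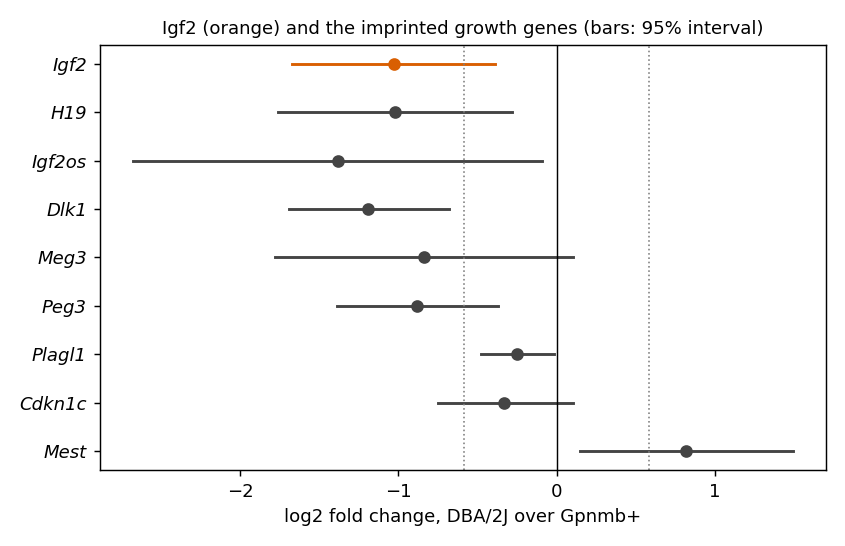
Log2 fold change of DBA/2J over Gpnmb+ (points) with the 95% interval of the edgeR fit (bars) for Igf2 and the 8 imprinted growth genes, with dotted lines at a 1.5-fold difference. Igf2 at -1.03 and H19 at -1.02 lay side by side, and Mest at 0.82 was alone above 0.

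The other members of the insulin family were scarce or did not pass the test. Ins1 and the liver binding protein gene Igfbp1 had 0 counts among the 231555584 counts of all pools, which allows up to 0.013 CPM each by counting error. Ins2, which lies next to Igf2, was counted 6, 16 and 13 times in DBA/2J against 30 and 61 times in Gpnmb+, a log2 difference of -1.78 (standard error 0.53, adjusted p = 0.193), or -1.14 without Gpnmb+ pool 2. Igfals, the acid-labile subunit of the serum complex, had 32, 20 and 17 against 11 and 2 counts, at 1.99 (standard error 0.69, adjusted p = 0.252), or 3.59 without Gpnmb+ pool 1 and 1.26 without Gpnmb+ pool 2. Insrr, the alkali-sensing orphan receptor of the family, was at 18.6, 17.9 and 27.8 CPM against 13.7 and 4.33 CPM, at 1.25 (standard error 0.49, adjusted p = 0.293), or 2.31 and 0.65 without the same pools. Igfbpl1 lay at -0.58 (standard error 0.41). Of 6 tested, 3 were positive and 3 negative.

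Receptor signaling was nearly flat. The 32 adaptors and PI3K, Akt, mTOR and FoxO genes were split 16 to 16 by sign, with a median of -0.01 and 0 called. Irs4 had at most 10 counts in a pool and lay at 1.09 (standard error 0.83), or 2.74 without Gpnmb+ pool 1 and 0.36 without Gpnmb+ pool 2. Irs2, an adaptor between receptor and PI3K, was at 143, 87.5 and 73.8 CPM in DBA/2J and 74.8 and 79.1 CPM in Gpnmb+, again highest in DBA/2J pool 1, with a log2 difference of 0.40 (standard error 0.28). Foxo4, a transcription factor that Akt keeps out of the nucleus, lay at -0.37 (standard error 0.12, adjusted p = 0.229), and Grb10, an imprinted adaptor that inhibits the receptors, at -0.33 (standard error 0.16, adjusted p = 0.386).

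The growth hormone axis, which drives Igf1 in liver, had 7 tested genes, all negative, with a median of -0.20 and 0 called. The prolactin receptor Prlr was at 0.832, 0.955 and 1.41 CPM in DBA/2J and 3.09 and 1.88 CPM in Gpnmb+, at -1.22 (standard error 0.34, adjusted p = 0.176). Cish and Socs2, inhibitors that STAT5 induces, lay at -0.73 (standard error 0.29) and -0.46 (standard error 0.13), and the growth hormone receptor Ghr at -0.20 (standard error 0.11). Igf1 itself lay at 0.26, on the other side of 0. Among the RNA-binding proteins that hold Igf2 mRNA and their partners, 3 of 6 were tested and 0 called. Igf2bp1 was at 5.49, 6.34 and 9.66 CPM against 4.38 and 3.41 CPM, at 0.88 (standard error 0.29, adjusted p = 0.233), and Igf2bp2 lay at 0.34 (standard error 0.31). Hmga2, a fetal chromatin protein, had 118, 13 and 12 counts against 57 and 10, at 0.69 (standard error 1.19), and was highest in DBA/2J pool 1. Its sign turned without that pool (-1.21) and without Gpnmb+ pool 2 (-0.06), and it was 2.39 without Gpnmb+ pool 1.

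Profiles over the 5 pools were compared as the root mean square difference of log2 CPM after centring each gene, among 12680 other tested genes with a mean log2 CPM of at least 2. Nearest to Igf2 were Adcyap1r1, the PACAP receptor, at 0.08, Ppp1r3c, a glycogen-targeting subunit of protein phosphatase, at 0.082, and the integrin subunit Itga8 at 0.095. Among the 3 nearest to Igfbp6 was the transcription factor Zfhx4 at 0.064. Nearest to Igfbp3 were Pvr at 0.093, Fam167a at 0.096 and the secreted metalloprotease Adamts1 at 0.14. These lists describe likeness over 5 pools of 2 genotypes, and many genes with the same genotype difference would be close.

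Marker lists of other cell types are given beside these results. Calls in these lists stand beside 0.796% of all tested genes called in either direction. Schwann cell markers summed to 56.1 to 71.3 CPM in DBA/2J and 94.8 to 103 CPM in Gpnmb+, with 5 of 6 negative and 1 called lower. Egr2 was the positive one, at 1.84 (standard error 0.8). Smooth muscle markers had 0 of 7 positive and 0 called, at 709 to 858 against 803 to 1020 CPM, which overlapped. Nonpigmented ciliary epithelium markers summed to 784 to 1020 against 187 to 310 CPM, with 6 of 6 positive and 3 called higher, in a ring described as keeping some iris and ciliary body. Skeletal muscle markers summed to 201 to 467 against 124 to 192 CPM with 8 of 8 positive and 0 called, and macrophage markers to 641 to 895 against 553 to 714 CPM with 7 of 8 positive and 0 called, which also overlapped. Pigment cell markers summed to 3460 to 4570 against 3720 to 4340 CPM, overlapping, with 1 of 8 called lower. All markers of these lists passed the count minimum. The part of these cell types in the values of the IGF genes was not tested.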

How the data were processed

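Iridocorneal angle mRNA of 3 DBA/2J and 2 Gpnmb+ pools was sequenced. The authors ran fastp for trimming and STAR for alignment to GRCm39 (Ensembl 110), and the deposited values are raw counts, the reads with 1 genomic location summed over each gene, not normalized. The strand used in counting and the treatment of reads that fit several genes are not given in the sources used here. Names and exon lengths came from GENCODE M39 (56323 of 56941 identifiers matched).

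Genes that reached 10 counts in any pool were scaled by TMM and compared in edgeR 4.0.16 (R 4.3.3) with the quasi-likelihood test and no covariate, over all 5 pools. Calls required an adjusted p (Benjamini-Hochberg) of 0.05 or less with a 1.5-fold change or more. The steps were tested on simulated data. DESeq2 1.42.0 and limma-voom 3.58.1 were alternatives. TPM used the union of exons. Named genes were the 9 IGF genes, called pathway genes, up to 4 genes of largest change per pathway list, and 3 nearest profiles for 3 IGF genes. Some genes that this rule names are not reported here. The IGF genes and all lists were chosen with earlier results of these data known. Nothing says that pools were independent beyond their animals, so p-values measure the spread between these pools. Counts cover counting error and not the variation between mice in a pool.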

Additional observations from a re-analysis of the deposited data

How the results depend on the processing

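The number of IGF genes called, 0, moved to 2 (Igf2 and Igfbp6) with DESeq2, where their adjusted p was 0.0156 and 0.000384. In the other edgeR and limma-voom alternatives that kept both Gpnmb+ pools, it was 0.108 to 0.314 for Igf2 and 0.056 to 0.169 for Igfbp6. With unadjusted p-values and the 1.5-fold minimum kept, 2 were called. Igfbp7, at a fold of 1.31, passed at unadjusted p only without that minimum, which gave the 3 stated above. The number was 0 with DESeq2's size factors in edgeR, total counts, limma-voom and filterByExpr. It was also 0 with no count filter, the replicate block and each DBA/2J pool left out. Igf2 ranged from -1.28 to -0.86 and Igfbp6 from -0.71 to -0.56 with 1 pool left out. Igfbp5 changed sign without DBA/2J replicate 2 (0.02) and without Gpnmb+ replicate 2 (0.03), and ranged from -0.26 to 0.03 with 1 pool left out. The other members kept their sign in every alternative. The number of pathway genes called, 1, was 5 with DESeq2, beside 4.7% of all tested genes. With unadjusted p-values at the same 1.5-fold minimum, 12 were called. The share of all tested genes at that threshold was not counted. Neither these 12 nor the 2 IGF genes above can thus be set against it. The number of pathway genes called was between 0 and 1 with 1 DBA/2J pool left out. At an unadjusted p of at most 0.05 in edgeR without that minimum it was 17 of 63, beside 15.9% of all tested genes. With a Gpnmb+ pool left out, the lone pool is assumed to vary like the DBA/2J pools. Over all genes 157 were called, 927 with DESeq2, 360 with no count filter and 1 to 217 with 1 pool left out. The cause of these moves was not tested.

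With the replicate number as a block (replicate block), 3 pathway genes were called (Htra1, H19 and Peg3), 0 IGF genes and 220 genes in all. Only 2 numbers are shared and the labels give them no meaning, so the pools were not treated as pairs. Deviations of pools with the same number correlated at 0.279 and 0.254. The deviations of the 2 Gpnmb+ pools mirror each other, so the crossed pairs were at -0.279 and -0.254 by construction. The share of Igfbp5 in the binding protein sum was 62.1% by longest transcript in place of 66.7%. The pools of Igf1 overlapped with total counts, leaving 5 of 9 genes without overlap. That scaling and the unshared exon bases of Igf2 were chosen after seeing the data.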
